A study of Drosophila melanogaster with 12 samples.

Results

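The libraries described here were the wild-type ones of a fruit fly series, in which ribosome footprints were set against RNA gene by gene in whole females of Drosophila melanogaster. They were grouped by their labels, with earlier results of these data known. They made up 5 of the 11 libraries in the count table, 3 of Ribo-Seq (replicates 1 to 3) and 2 of RNA-Seq (replicates 1 and 2). Of the 12759 protein-coding genes in the table, 8249 passed a minimum of 5 CPM (protein-coding counts scaled to a total of 1e+06 in each library) in every library of at least 1 assay and were tested. The remaining 6 libraries came from females heterozygous for an insertion in Polr3D, which encodes part of RNA polymerase III, labelled dC53EY22749 and written Polr3D EY/+ here, and were used only as a repeat of the measurement. No comparison of the genotypes was made.

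Wild type meant the stock labelled White Dahomey, an outbred background which, by the study's methods, had been cleared of Wolbachia and given w1118 or v1 so that insertions could be followed. The Polr3D EY/+ flies shared this background. Each library was made from pooled whole flies, and the labels gave no age. The protocol for footprints named cycloheximide, which stalls elongating ribosomes, in a wording for cultured cells although the samples were whole flies, and it named RNase I and a small RNA library kit. How RNA was selected for RNA-Seq was not given in the sources used here.

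A ribosome shields a short stretch of mRNA from nuclease, and sequencing of these fragments counts ribosomes on coding sequences. The number of footprints relative to the amount of mRNA, often called translation efficiency, is high where many ribosomes load on each mRNA or move slowly, and low where an mRNA is held untranslated. In a laying female much of the protein made is yolk, lipoprotein and eggshell, whereas the oocyte stores many mRNAs in a silent state until the egg is laid. In whole bodies a smaller number of cells of a type and less RNA in each cell cannot be told apart. The footprint to RNA ratio of a gene is an average over all cells that express it.

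The 3 Ribo-Seq libraries held 1127599 to 1495975 protein-coding counts, which was 2.22 to 3.02% of their totals, because rRNA took 96.3 to 97.4%. The 2 RNA-Seq libraries held 27855356 and 24467914 protein-coding counts, 99.1 and 99.0% of their totals. Footprints were thus the shallower measure, with 9744 to 9964 protein-coding genes seen in a Ribo-Seq library, against 11290 and 11249 in the RNA-Seq libraries. Spearman correlations of the libraries across genes were 0.962 to 0.965 within Ribo-Seq, 0.984 within RNA-Seq and 0.744 to 0.759 between the assays. Of the markers checked, those of follicle cells, fat body, midgut, germline, muscle and eye were present in both assays. Among them the fat body marker Fbp1, with means of 5.62 CPM in Ribo-Seq and 1.34 CPM in RNA-Seq, did not pass the minimum. The germline marker nos was not matched to a gene in the table. Neuron markers were sparse: elav had means of 7.78 and 5.62 CPM in Ribo-Seq and RNA-Seq. brp had 4.30 and 1.79 CPM and did not pass. The male markers were close to absent, except that Ribo-Seq replicate 2 held 37 footprints of Acp36DE, 6 of Acp26Aa and 4 of SP, seminal proteins with 0 footprints in replicates 1 and 3. None of the 9 male markers in the table passed the minimum, and 943 genes were high and 2320 low when that library was left out, against 906 and 2285 with it.

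Of 8249 genes, 906 (11.0%) were called high in footprints per RNA and 2285 (27.7%) were called low, at an adjusted p under 0.1 and a log2 difference of more than 1 either way. The remaining 5058 (61.3%) were not called. The median log2 difference, Ribo-Seq minus RNA-Seq, was -0.30, with quartiles of -1.10 and 0.42, and the central 90% of genes lay between -2.47 and 1.52. The distribution therefore leaned to the low side. The balance depended on the scaling: high genes made up 28.4% of calls when each library was scaled to its protein-coding total, 41.0% with TMM factors (1259 high, 1813 low) and 44.0% with DESeq2 size factors (1354 high, 1725 low), which moved the median of all genes up by 0.22 and 0.28. Differences below are on the protein-coding scale and are best read against that median. Counts of calls in the lists and families below are to be read against 11.0% high and 27.7% low of all genes. Among the 7151 genes with 5 CPM in all libraries of both assays, 714 were high and 1641 low, with a median of -0.20. A gene that passed the minimum through a single assay (219 through Ribo-Seq alone, 879 through RNA-Seq alone) was likely to differ in that direction. Where the calls of a list included such members, the count over members that passed in both assays is therefore given as well. The labels do not say that replicates came from separate animals, so p-values measure only the spread between these libraries, which may be technical.

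**Figure D1:**
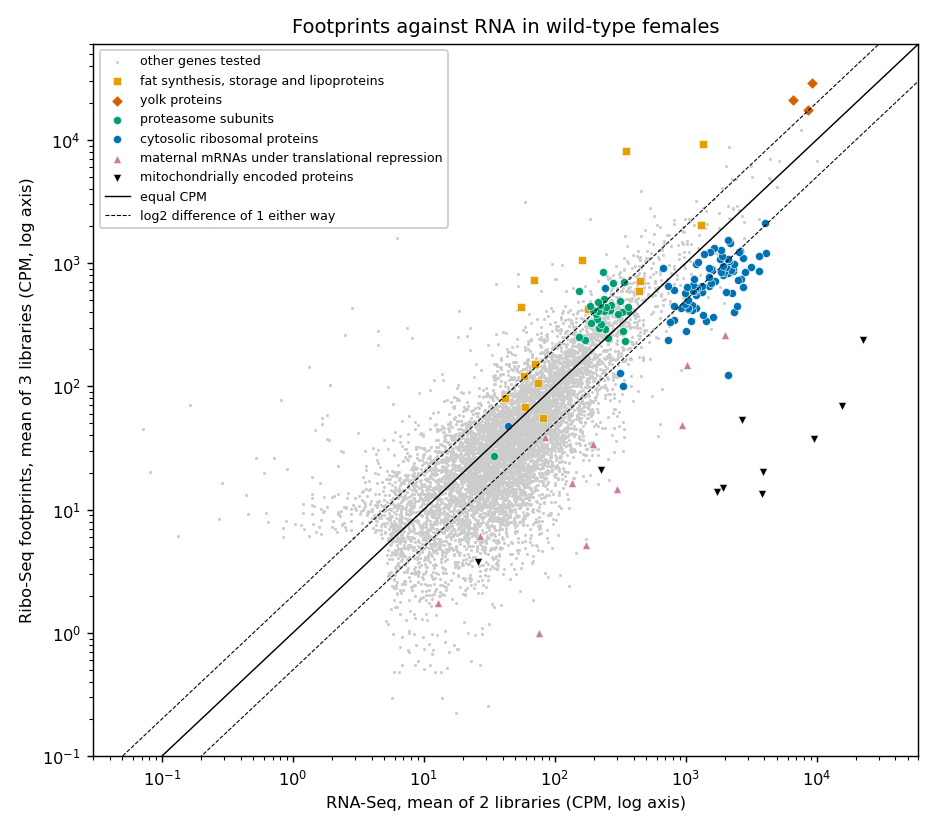
Mean footprints against mean RNA in wild-type females, both in CPM on log axes, 1 point per tested gene, with members of 6 gene lists marked. The solid line is equal CPM, the dashed lines a log2 difference of 1 either way, and genes with a mean of 0 in an assay are not drawn. Yolk, fat and proteasome genes lie mostly above the solid line, and ribosomal, repressed maternal and mitochondrially encoded genes mostly below it.

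Yolk and lipid transport genes carried a large part of all footprints. The 3 yolk protein genes, made in fat body and ovary and taken up by the oocyte, held 7.10, 6.20 and 6.87% of protein-coding footprints against 2.14 and 2.76% of protein-coding RNA. All 3 were called high, with a median log2 difference of 1.63. Yp1 (FBgn0004045) had 30803, 25989 and 29617 CPM in Ribo-Seq and 7975 and 10574 CPM in RNA-Seq. Every footprint library lay above both RNA libraries, and the log2 difference was 1.63 (SE 0.17, adjusted p = 1.53e-07). The difference was 1.68 for Yp3 (adjusted p = 5.15e-08), with 22067, 19745 and 21407 CPM in Ribo-Seq and 5905 and 7292 CPM in RNA-Seq. It was smallest for Yp2, at 1.01 (adjusted p = 1.84e-05), and no longer called without Ribo-Seq replicate 1 (0.98) or RNA-Seq replicate 1 (0.84).

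Of 15 genes of fat synthesis, storage and lipoproteins, 8 were high and 0 low, with a median of 1.04 against -0.30 over all genes. The list held 2.65, 2.35 and 2.21% of footprints and 0.468 and 0.487% of RNA, 5.03 times the share. Without the 30 genes of highest counts in either assay it held 0.807% of footprints and 0.365% of RNA, 2.21 times, so much of the excess was FASN1 and apolpp. FASN1 (FBgn0283427, chromosome 2L, 3056598 to 3068177 on BDGP6), the fatty acid synthase of the fat body and other tissues, had 9660, 7925 and 6998 CPM in Ribo-Seq and 284 and 418 CPM in RNA-Seq. That was a 23.3-fold excess of footprints, a log2 difference of 4.55 (SE 0.21, adjusted p = 3.13e-12). Its paralogues FASN2 and, outside the list, FASN3 had differences of 2.99 and 3.06, and ACC, acetyl-CoA carboxylase, the step before them, had a difference of 2.71. These 4 genes were all called high.

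The lipoproteins of the haemolymph stood at the same end. apolpp, the scaffold of lipophorin, had 9728, 8876 and 9064 CPM in Ribo-Seq and 1492 and 1222 CPM in RNA-Seq, a difference of 2.76 (SE 0.16, adjusted p = 7.73e-11). Apoltp, the lipid transfer particle, had a difference of 3.41. The groups of libraries did not overlap for either gene. mgl, a member of the LDL receptor family that was not in the list, had 859, 620 and 540 CPM in Ribo-Seq and 32.8 and 38.0 CPM in RNA-Seq, a difference of 4.25. Lipid handling was not high throughout: mdy, a diacylglycerol acyltransferase of triglyceride synthesis, had the lowest value of its list, -0.55, and was not called.

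Eggshell genes were spread between the middle and the high end. Vml, a vitelline membrane-like protein, had 766, 837 and 823 CPM in Ribo-Seq and 44.9 and 59.2 CPM in RNA-Seq, a log2 difference of 3.96 (SE 0.17, adjusted p = 5.39e-13). Vm26Ab, a main vitelline membrane protein, had a difference of 2.28. Of the 12 vitelline membrane and early eggshell genes 3 were high and 0 low, with a median of 0.48 and shares of 0.992% of footprints and 0.611% of RNA. The 9 chorion genes, which follicle cells express later to build the outer shell, had a median of 0.39 and no call in either direction, while 2 were high with TMM factors. Cp38 had 6493, 8221 and 6348 CPM in Ribo-Seq and 4051 and 4804 CPM in RNA-Seq, and Cp15 had 6459, 7207 and 6674 CPM in Ribo-Seq and 5505 and 4825 CPM in RNA-Seq. Both had more footprints than RNA in every library, with differences of 0.66 and 0.39 that stayed under the threshold.

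The mucin genes Muc12Ea and Muc68E and the immune peptide gene BomT3 had some of the largest excesses of footprints. Of the 5 tested genes named Muc, a group formed after its values were seen, 3 were high and 0 low, with a median of 2.12 and a lowest value of 0.33. Muc12Ea (FBgn0052602), a mucin by name, had 3197, 3170 and 3101 CPM in Ribo-Seq and 63.4 and 56.2 CPM in RNA-Seq, 52.7-fold more (log2 difference 5.72, SE 0.17, adjusted p = 5.2e-15). Muc68E had 252, 231 and 255 CPM in Ribo-Seq and 7.43 and 8.83 CPM in RNA-Seq, a difference of 4.92. BomT3 (FBgn0038930), a Bomanin, a family of small peptides secreted under Toll control, had 324, 277 and 240 CPM in Ribo-Seq and 6.10 and 2.82 CPM in RNA-Seq, a difference of 5.96 (SE 0.27, adjusted p = 1.84e-12). With FASN1 and the uncharacterised gene CG17108 (4.46) these were the 5 highest called genes among those with a mean of at least 50 counts per library in both assays, histones and genes with shared coding sequence aside. BomT3 passed through Ribo-Seq alone. Both mucin genes and BomT3 were above every RNA library in each of the 3 footprint libraries.

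Digestive enzymes secreted by the midgut had moderate differences. Over all genes 11.0% were high and 27.7% low. Of 14 Jonah serine proteases 5 were high and 0 low (median 0.65), and the list took 1.64% of footprints against 1.0% of RNA. Jon66Ci, which passed through Ribo-Seq alone, was at 4.93, and Jon65Aiv at 0.65 was not called. Of the 13 Jonah genes that passed in both assays 4 were high and 0 low. Of 14 maltases and amylases 5 were high and 0 low (median 0.59, with 2 high without RNA-Seq replicate 1, 3 without Ribo-Seq replicate 3 and 2 per base), and the amylase Amy-p had 1404, 1402 and 1509 CPM in Ribo-Seq and 995 and 1044 CPM in RNA-Seq, a difference of 0.50. Of 5 gut lysozymes 3 were high and 0 low (median 1.11), led by LysE with 132, 117 and 132 CPM in Ribo-Seq and 18.1 and 9.36 CPM in RNA-Seq. The midgut trypsins had a median of 0.04, with 3 of 11 high and 1 low. Of the 9 trypsins that passed in both assays 2 were high and 0 low. Among them betaTry was high at 1.10, with 4621, 4256 and 5558 CPM in Ribo-Seq and 2212 and 2290 CPM in RNA-Seq, whereas alphaTry was at -0.68. The near-identical copies deltaTry (-1.25) and gammaTry (2.11) are uncertain, since Ribo-Seq replicate 2 gave 0 footprints to both and replicates 1 and 3 gave 212 to 240 CPM to each. Without replicate 2 deltaTry was at -0.69 and not called.

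Only 6 of 18 antimicrobial peptide genes passed the minimum, of which 3 were high and 1 low, with a median of 1.01, or 0.21 without RNA-Seq replicate 2. Mtk and Drsl5 passed through Ribo-Seq alone, and of the 2 that passed in both assays 1 was high. Drs, the antifungal Drosomycin, had 515, 464 and 466 CPM in Ribo-Seq and 174 and 129 CPM in RNA-Seq, a difference of 1.67 (adjusted p = 2.31e-08). Mtk, Metchnikowin, was higher still at 2.95 from few counts, and DptB, a Diptericin, was low at -1.06 with 0.668, 4.43 and 6.11 CPM in Ribo-Seq and 8.11 and 6.78 CPM in RNA-Seq. The call of DptB was lost without Ribo-Seq replicate 1 (-0.49) or RNA-Seq replicate 1 (-0.91). The 3 tested Turandot stress genes, which encode small haemolymph peptides, had a median of 0.61 and no call. Their RNA varied between the replicates, with 92.2 and 32.6 CPM for TotA, and footprints and RNA overlapped. Without RNA-Seq replicate 1, TotA (1.61) and TotC (1.20) were called high.

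The machinery that folds secreted proteins was on the high side. Of 13 ER chaperones and folding enzymes 5 were high and 0 low, with a median of 0.98, and the list took 0.934% of footprints and 0.411% of RNA. Hsc70-3, the BiP chaperone, had 2227, 2230 and 2300 CPM in Ribo-Seq and 721 and 924 CPM in RNA-Seq, a log2 difference of 1.45 (adjusted p = 1e-07). ERp60, a disulphide isomerase, had 1862, 1989 and 2042 CPM in Ribo-Seq and 557 and 714 CPM in RNA-Seq, a difference of 1.63. Footprints exceeded RNA in all libraries for both, and Ero1L, the oxidase that drives disulphide formation, was at the other end with -0.97 and no call, though it was low without Ribo-Seq replicate 2 (-1.01) or RNA-Seq replicate 1 (-1.08).

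The longest coding sequences stood apart from the rest. Of 56 tested genes with more than 9600 coding bases, 36 were high and 2 low, with a median log2 difference of 1.71, and 64.3% were high against 11.0% of all genes. The median was 1.55, 1.70 and 1.51 in Ribo-Seq replicates 1 to 3, each set against the RNA-Seq mean. Between 4800 and 9600 bases 30.4% of 306 genes were high, between 600 and 1200 bases 6.95% of 2332 were, and at 300 bases or fewer 29.5% of 264 were. High genes were therefore most frequent at both ends of the length range, though at 300 bases or fewer 23.9% were low. Of these shortest genes 38 passed through Ribo-Seq alone, of which 31 were high. Of the 195 shortest genes that passed in both assays 47 were high and 43 low, against 122 high of 1982 between 600 and 1200 bases. A single rank correlation with coding length was near 0 (0.04 across 8249 genes, which are not independent). Because longer transcripts give more fragments in both assays, the fit was repeated with counts per coding base for footprints and per transcript base for RNA. The median of the longest genes was then 1.36. That of genes between 4800 and 9600 bases went from 0.34 to 0.10, and that of the shortest genes from 0.18 to 0.93. The rank correlation with coding length was -0.11 per base.

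The long genes included motors and proteins of the cytoskeleton. Dhc64C, the heavy chain of cytoplasmic dynein, had 667, 688 and 618 CPM in Ribo-Seq and 46.0 and 58.1 CPM in RNA-Seq, a difference of 3.66. Msp300, a giant nesprin that anchors nuclei, had 329, 208 and 227 CPM in Ribo-Seq and 22.4 and 20.1 CPM in RNA-Seq, a difference of 3.59. In both genes the lowest footprint library was above the highest RNA library by a wide margin. The exceptions were CG10631 at -2.38, with 5.35, 2.66 and 2.29 CPM in Ribo-Seq and 14.7 and 22.4 CPM in RNA-Seq, and hiw, a ubiquitin ligase of synapses, at -1.29. Both had passed the minimum through RNA-Seq alone, and of the 51 long genes that passed in both assays 33 were high and 0 low. Among the genes of 4800 to 9600 coding bases, the membrane skeleton gene alpha-Spec had 984, 946 and 1015 CPM in Ribo-Seq and 86.3 and 105 CPM in RNA-Seq, a difference of 3.36.

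**Figure D2:**
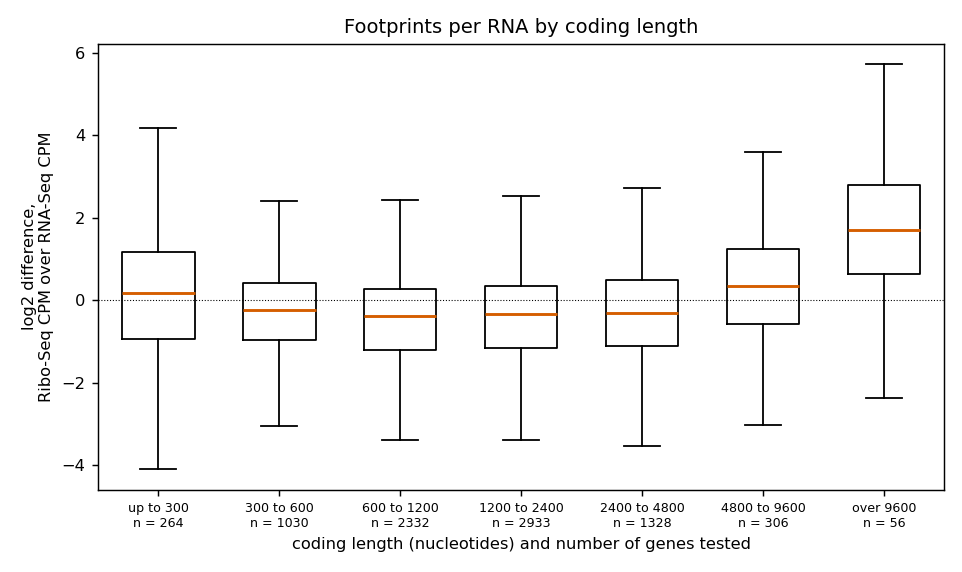
Log2 difference of footprints and RNA in wild-type females by coding length in bases, with the median and quartiles of each bin as boxes, whiskers to the farthest values near the box and values beyond them not drawn. Bins of up to 300 bases and of more than 4800 bases have medians above 0, the longest at 1.71, and those between lie below 0.

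Genes with short untranslated regions had higher medians than those with longer ones. The median difference was 0.11 in the 939 genes with a 5′ UTR of at most 50 bases and -0.57 in the 1309 genes with more than 400 bases. For the 3′ UTR it was -0.07 at up to 100 bases, -0.68 between 800 and 1600 bases and -0.41 in the 321 genes with more than 1600 bases, of which 17.1% were high. Rank correlations across genes were weak, at -0.14 for the 5′ and -0.17 for the 3′ UTR. Per base they were 0.01 and 0.04, and the 3′ UTR bin over 1600 bases then had the highest median of its kind, 0.45, against -0.33 to -0.18 in the shorter bins.

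The proteasome, which degrades ubiquitin-tagged proteins, was shifted to the high side. Of 32 subunits 9 were high and 0 low, with a median of 0.73, and they took 1.31% ± 0.0658 of footprints (SD, n = 3) and 0.781% ± 0.0129 of RNA (n = 2). Prosbeta3, a subunit of the core particle, had 566, 621 and 589 CPM in Ribo-Seq and 140 and 168 CPM in RNA-Seq, a difference of 1.94 (adjusted p = 1.45e-09). Rpn1, a scaffold of the regulatory particle, had 801, 881 and 839 CPM in Ribo-Seq and 200 and 268 CPM in RNA-Seq, a difference of 1.84. The lowest was Prosalpha4 at -0.55, with 229, 235 and 239 CPM in Ribo-Seq and 354 and 331 CPM in RNA-Seq. The count of high subunits was 13 with TMM factors and 4 per base.

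Other housekeeping sets had lower medians than the proteasome. That of the glycolytic enzymes (0.68) was close to the proteasome's (0.73), and per base it was above it (0.70 against 0.55). All 8 CCT chaperonin genes, which fold actin and tubulin, were without a call, with a median of 0.19, and the lowest, CCT7, had 372, 389 and 386 CPM in Ribo-Seq and 381 and 422 CPM in RNA-Seq. Of 13 heat shock and mitochondrial chaperones 4 were high and 0 low (median 0.24), led by Hsp110 at 1.55, while the constitutive chaperone Hsc70-4 was at 0.19. Hsp68 passed through Ribo-Seq alone, and of the 12 that passed in both assays 3 were high and 0 low. Of 13 glycolytic enzymes 3 were high and 0 low (median 0.68). PyK, pyruvate kinase, had 2033, 2134 and 1962 CPM in Ribo-Seq and 544 and 666 CPM in RNA-Seq, a difference of 1.76, and Gapdh1 was lowest at -0.44. Of 65 nuclear-encoded subunits of the respiratory chain and ATP synthase 6 were high and 2 low (median 0.13). Of the 63 that passed in both assays 5 were high and 2 low. COX7AL2 was highest at 1.81 (passed through Ribo-Seq alone) and ND-15 lowest at -1.22. ATPsynbeta had 2765, 2663 and 2675 CPM in Ribo-Seq and 2593 and 2525 CPM in RNA-Seq. For these subunits footprints and RNA were close to balance. The calls of these sets compare with 11.0% high and 27.7% low of all genes.

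Of 20 genes of the vacuolar proton ATPase 4 were high and 2 low (median 0.41), but per base 5 were high and 0 low. Among all genes 11.0% were high and 27.7% low. Vha68-2, a catalytic subunit, was high at 1.15. Vha16-1, the proteolipid of the membrane ring, had 694, 571 and 650 CPM in Ribo-Seq and 1883 and 1771 CPM in RNA-Seq, a difference of -1.52, but 0.61 when counts were taken per base, so its direction depended on the unit. Of 33 aminoacyl-tRNA synthetases 5 were high and 2 low (median 0.05, above 0 or below it depending on the library left out). Of the 32 that passed in both assays 5 were high and 1 low. ValRS had 310, 339 and 314 CPM in Ribo-Seq and 81.7 and 104 CPM in RNA-Seq, a difference of 1.79, and the mitochondrial ProRS-m was lowest at -1.38. Of 16 redox defence genes 3 were high and 1 low (median 0.30), with catalase, Cat, at 1.54, the peroxiredoxin Prx6c at 1.84 and thioredoxin-2, Trx2, at -1.17.

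Cytosolic ribosomal protein genes had fewer footprints than their RNA would give at the median of all genes. Of 82 tested genes 51 were low and 1 high, with a median of -1.12 against -0.30 over all genes. They took 6.16, 5.54 and 6.70% of footprints and 14.5 and 13% of RNA, so their share of RNA was 2.24 times their share of footprints. RpLP0, a protein of the ribosomal stalk, had 1257, 1021 and 1318 CPM in Ribo-Seq and 4312 and 3869 CPM in RNA-Seq, a difference of -1.77 (SE 0.14, adjusted p = 5.45e-09). RpS29, a small zinc-binding protein, was the lowest, with 134, 109 and 125 CPM in Ribo-Seq and 2218 and 2018 CPM in RNA-Seq, 17.2-fold less (-4.10, SE 0.15, adjusted p = 4.94e-14). Per base the difference of RpS29 was -2.90. Every footprint library was below both RNA libraries for these genes. The exception was RpL39, with 907, 435 and 552 CPM in Ribo-Seq and 340 and 140 CPM in RNA-Seq, a difference of 1.4 that was no longer called without RNA-Seq replicate 2 (0.90). With TMM factors 35 were low, with DESeq2 size factors 30, and with each library left out 43 to 57, and the direction of the median was the same in each.

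**Figure D3:**
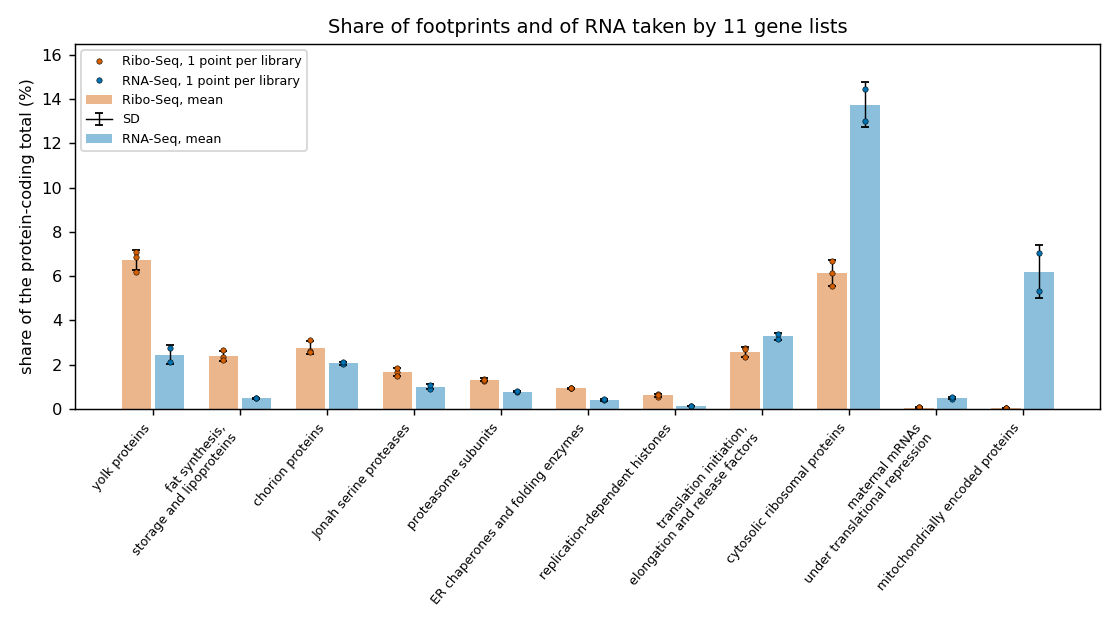
Share of protein-coding counts, in percent, taken by gene lists in each wild-type library (points), with the mean (bars) and SD (error bars), Ribo-Seq left and RNA-Seq right. Yolk proteins hold 6.20 to 7.10% of footprints and 2.14 to 2.76% of RNA, and cytosolic ribosomal proteins 5.54 to 6.70% of footprints and 13 to 14.5% of RNA.

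The rest of the translation apparatus was not low to the same extent. Over all genes 27.7% were low and 11.0% high. Of 46 translation factors 5 were low and 1 high (median -0.26, near that of all genes), and they took 2.58% of footprints and 3.29% of RNA. eEF1alpha1, which delivers aminoacyl-tRNA to the ribosome, had 7447, 5433 and 7222 CPM in Ribo-Seq and 9357 and 10863 CPM in RNA-Seq, a difference of -0.59 that was not called. The scaffold of cap binding, eIF4G1, was high at 1.08, with 776, 774 and 785 CPM in Ribo-Seq and 347 and 388 CPM in RNA-Seq, and eIF2A was lowest at -2.24, with 97.6, 76.3 and 102 CPM in Ribo-Seq and 415 and 455 CPM in RNA-Seq. Of 74 mitochondrial ribosomal proteins, made in the cytosol and imported, 4 were high and 8 low (median -0.19), from mRpL34 at 1.36 to mRpS5 at -1.65. The 15 nucleolar ribosome biogenesis genes had 1 high and 3 low (median -0.17), with the pseudouridine synthase Nop60B at -1.35 and mbm at -1.36. Of 11 RNA polymerase III subunits 4 were low (36.4%, against 27.7% of all genes) and 0 high (median -0.55). Polr3D had 28.7, 28.4 and 24.4 CPM in Ribo-Seq and 51.7 and 63.6 CPM in RNA-Seq, a difference of -1.08 that was no longer called without RNA-Seq replicate 2 (-0.93). Polr3I was the lowest subunit at -1.36, and Polr3B the highest at 0.90, called without Ribo-Seq replicate 2 (1.01) or RNA-Seq replicate 2 (1.11). With TMM factors 1 subunit was high and 1 low.

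**Figure D4:**
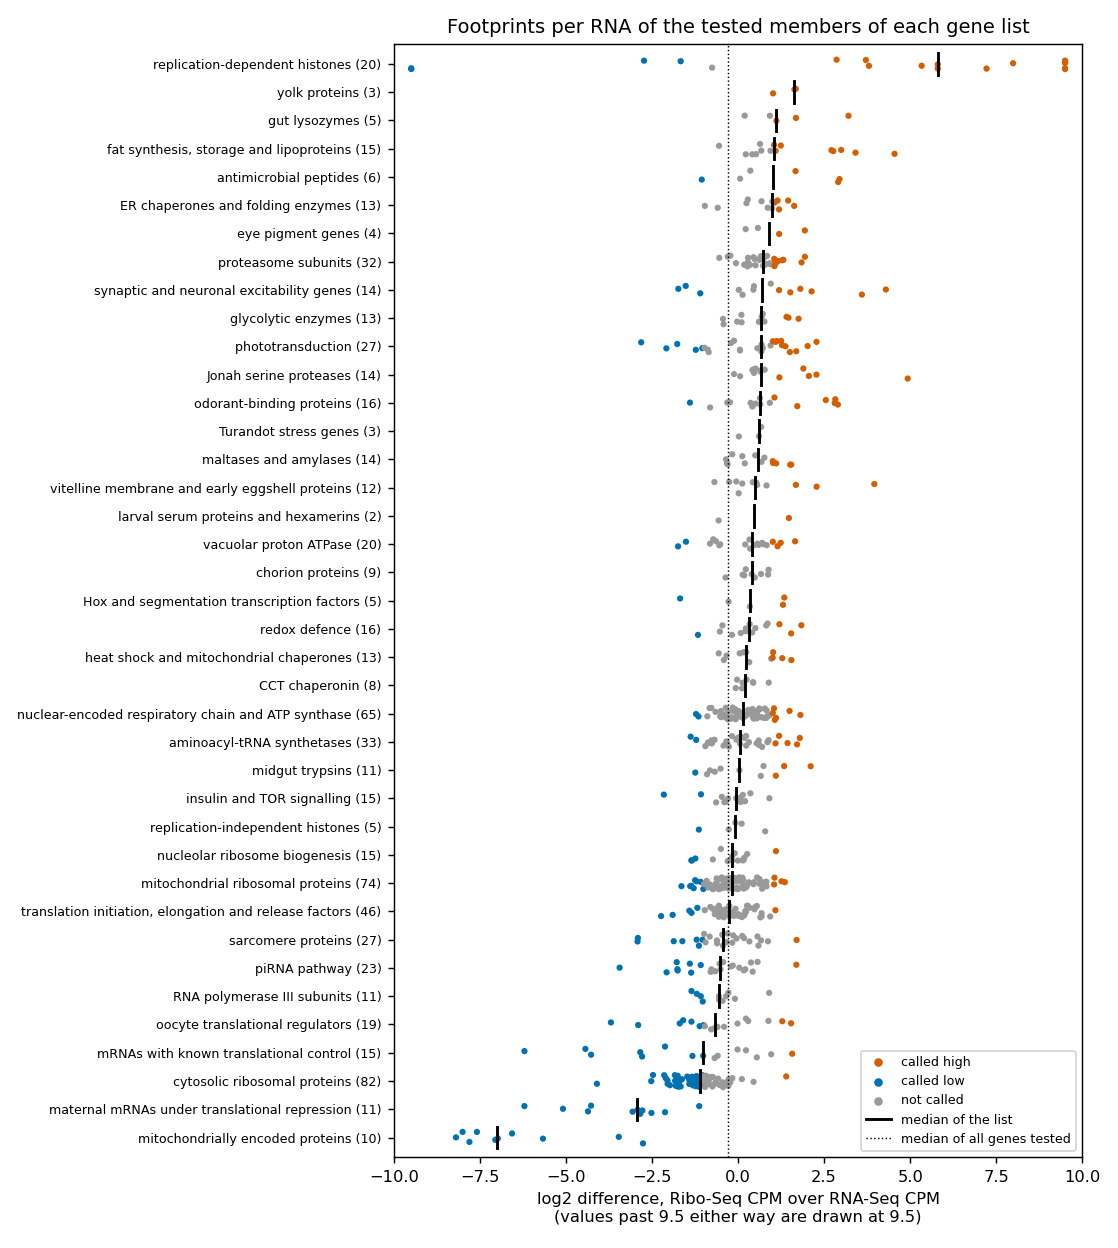
Median log2 difference of footprints and RNA of each gene list in wild-type females, with 1 point per tested gene the median of all tested genes as a dotted line, and values past 9.5 either way drawn at 9.5. Maternal mRNAs under translational repression (-2.92) and cytosolic ribosomal proteins (-1.12) lie left of that line, and yolk proteins (1.63) and genes of fat and lipoproteins (1.04) lie right of it.

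The listed maternal mRNAs that the germline stores in a repressed state were low. All 11 of this list were called low, against 27.7% of all genes, with a median of -2.92 (8 of 8 low among those that passed in both assays), and together they took 0.0428, 0.0686 and 0.0621% of footprints and 0.461 and 0.529% of RNA. They were picked as known cases of repression in oocytes or early embryos. nos was picked as well but was not matched to a gene in the table. With TMM factors, with DESeq2 size factors, per base and when tested against a log2 difference of 1, 10 of the 11 were low. bcd (FBgn0000166, chromosome 3R, 6755842 to 6759466), the anterior determinant, which is translated in the laid egg, had 1.34, 0.887 and 0.763 CPM in Ribo-Seq and 74.0 and 78.2 CPM in RNA-Seq, a difference of -6.21 (SE 0.35, adjusted p = 4.11e-11). osk (FBgn0003015), which organises the germ plasm at the posterior pole, had 49.5, 55.9 and 39.7 CPM in Ribo-Seq and 823 and 1042 CPM in RNA-Seq, a difference of -4.27 (adjusted p = 1.65e-13). Of the osk coding bases 67.1% are also in the model lncRNA:osk, which held 0 footprints and 21 and 71 RNA counts, which leaves these values nearly as they are.

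pgc, which represses transcription in germ cells, had 14, 16 and 13.7 CPM in Ribo-Seq and 317 and 281 CPM in RNA-Seq, a difference of -4.36 (-3.08 per base). The cell cycle regulators of the list were low as well. stg, a Cdc25 phosphatase, had 2.67, 5.32 and 7.63 CPM in Ribo-Seq and 173 and 176 CPM in RNA-Seq, a difference of -5.09 (adjusted p = 3.94e-12). CycB, the mitotic cyclin B, had 168, 335 and 287 CPM in Ribo-Seq and 1870 and 2115 CPM in RNA-Seq, a difference of -2.92, and CycA was at -2.78. The posterior gene cad was at -3.07, the dorsal-ventral signal grk at -2.84, gcl of the germ plasm at -2.52 and the gap gene hb at -2.12. The smallest difference was that of twe, the meiotic Cdc25, at -1.13, not called with TMM factors, nor without Ribo-Seq replicate 1 (-0.97) or RNA-Seq replicate 2 (-0.98).

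The regulators of oocyte translation themselves went both ways. Of 19 genes 7 were low (36.8%) and 2 high (10.5%), against 27.7 and 11.0% of all genes. Their median was -0.68, and their shares were 0.937% of footprints and 0.973% of RNA. smg, Smaug, which is made in the laid egg, had 24.1, 66.5 and 58.8 CPM in Ribo-Seq and 585 and 682 CPM in RNA-Seq, a difference of -3.70. swa, swallow, which localises bcd, was at -2.91, and orb, the oocyte CPEB protein, had 94.9, 89.6 and 83.2 CPM in Ribo-Seq and 186 and 202 CPM in RNA-Seq. tud, the Tudor protein of polar granules, was high, with 273, 282 and 283 CPM in Ribo-Seq and 87.8 and 105 CPM in RNA-Seq, a difference of 1.54. me31B, a helicase of the repressed particles, was near balance at 0.29, with 2826, 2864 and 2766 CPM in Ribo-Seq and 2501 and 2100 CPM in RNA-Seq. cup was also high at 1.28, but its coding sequence lies wholly in exons shared with CG34310.

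Of 23 piRNA pathway genes, which silence transposons in the germline, 8 were low (34.8%) and 1 high (4.3%), with a median of -0.54. Over all genes 27.7% were low and 11.0% high. rhi, the Rhino protein of piRNA clusters, had 3.34, 3.55 and 3.05 CPM in Ribo-Seq and 35.9 and 36.3 CPM in RNA-Seq, a difference of -3.44. AGO3, a slicer of the ping-pong cycle, had 70.9, 49.7 and 64.9 CPM in Ribo-Seq and 255 and 174 CPM in RNA-Seq, a difference of -1.79. Both sat below the RNA in every library. fs(1)Yb, a factor of the somatic follicle cells, was the high gene at 1.69, from 8.69, 6.21 and 7.63 CPM in Ribo-Seq and 1.94 and 2.78 CPM in RNA-Seq, and it passed through Ribo-Seq alone. Of the 20 piRNA genes that passed in both assays 7 were low and 0 high.

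**Figure D5:**
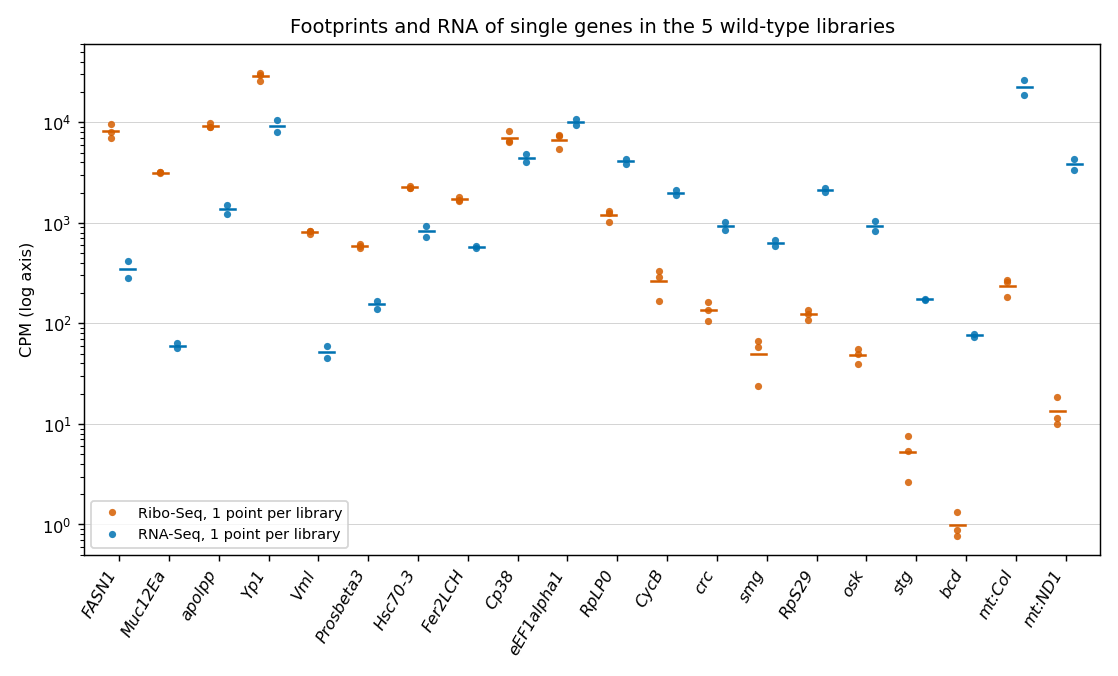
Footprints (Ribo-Seq, left of each pair) and RNA (RNA-Seq, right) of selected genes in wild-type females, in CPM on a log axis, 1 point per library and a bar at the mean. Of the genes drawn, mt:ND1 has the largest deficit of footprints (294-fold) and Muc12Ea the largest excess (52.7-fold), and Cp38 and eEF1alpha1 lie near balance.

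The proteins encoded by mitochondrial DNA, core subunits of the respiratory chain, had very few footprints for their RNA. All 10 tested genes of 13 were low, with a median of -7.02, and so were all 9 that passed in both assays. The list took 0.0404, 0.0570 and 0.0497% of footprints and 7.04 and 5.35% of RNA. mt:CoI, cytochrome oxidase subunit I, had 184, 271 and 256 CPM in Ribo-Seq and 26218 and 18774 CPM in RNA-Seq, 95-fold less (-6.57, SE 0.21, adjusted p = 8.33e-15). mt:ND1 had 11.4, 18.6 and 9.92 CPM in Ribo-Seq and 3382 and 4298 CPM in RNA-Seq, 294-fold less (-8.20, adjusted p = 6.6e-16). The least extreme was mt:ND2 at -2.77. These mRNAs are read by mitochondrial ribosomes inside the organelle, and whether the lysis, nuclease and cycloheximide steps recover those ribosomes was not tested.

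Replication-dependent histones were at the opposite end. Their mRNAs end in a stem-loop in place of a poly(A) tail, and the selection of RNA was not stated, so the part of RNA recovery in these values was not tested. Among the 30 genes listed, 20 were tested, 15 high and 4 low, with a median of 5.80 that was 4.75 without RNA-Seq replicate 1 and 9.48 without RNA-Seq replicate 2. Of the 15 high copies 11 passed through Ribo-Seq alone, and of the 6 copies that passed in both assays 3 were high and 2 low, so the copies that passed do not stand for all. In shares, the list took 0.534, 0.654 and 0.637% of footprints and 0.111 and 0.106% of RNA. The copies of each histone are near-identical, so values of single copies are uncertain and sums by type are given. The sums rest on unequal numbers of copies in the count table: 12 of His1, 4 of His2A, 7 of His2B, 2 of His3 and 5 of His4. Summed over copies, His3 had a mean of 2033 CPM in Ribo-Seq and 9.13 CPM in RNA-Seq, a 223-fold excess of footprints. His2B had 2030 CPM in Ribo-Seq and 48.2 CPM in RNA-Seq (42.2-fold), and His4 had 805 CPM in Ribo-Seq and 102 CPM in RNA-Seq (7.88-fold). The linker histone His1 was nearer balance, with 437 CPM in Ribo-Seq and 310 CPM in RNA-Seq (1.41-fold), as was His2A with 775 CPM in Ribo-Seq and 615 CPM in RNA-Seq (1.26-fold). The 4 core histone types thus spanned 775 to 2033 CPM in footprints and 9.13 to 615 CPM in RNA. The part of the unequal copy numbers in these spans was not tested. The 5 replication-independent histones had a median of -0.08 and 1 low gene, BigH1, the linker histone of germline and early embryo, at -1.14, with His3.3B at -0.08 and His4r at 0.79.

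Muscle, eye and nerve genes were mixed. Of 27 sarcomere proteins 7 were low (25.9%) and 1 high (3.7%), against 27.7 and 11.0% of all genes (median -0.44). Of the 25 that passed in both assays 6 were low and 1 high. sls, which encodes the titin-like Sallimus, was the high gene, with 126, 77.2 and 87.0 CPM in Ribo-Seq and 29.3 and 30.7 CPM in RNA-Seq. Mlc2, the regulatory light chain of myosin, was lowest at -2.92 (-1.59 per base), with 32.1, 27.5 and 24.4 CPM in Ribo-Seq and 222 and 205 CPM in RNA-Seq. Mhc, the myosin heavy chain, had 189, 127 and 144 CPM in Ribo-Seq and 131 and 142 CPM in RNA-Seq. Single members lay on either side, while the share of low calls in the list was near that of all genes. Of 27 phototransduction genes 10 were high and 5 low (median 0.67), and of the 21 that passed in both assays 7 were high and 4 low: chp, chaoptin, a cell adhesion protein of photoreceptors, was at 2.28, the lipase inaE at -2.82, and the rhodopsin ninaE, not called at -0.86, had 424, 461 and 420 CPM in Ribo-Seq and 765 and 809 CPM in RNA-Seq. Of 14 tested synaptic and excitability genes of 27, 6 were high and 3 low (median 0.70), of which futsch and Dscam1 passed through Ribo-Seq alone, and 4 of the 10 that passed in both assays were high and 2 low. Per base 12 were high and 2 low, with a median of 2.20, and the median was 0.38 without RNA-Seq replicate 2. Values ran from the microtubule-binding futsch at 4.29, with 44.8, 30.2 and 35.9 CPM in Ribo-Seq and 1.90 and 1.88 CPM in RNA-Seq, to the potassium channel Shal at -1.74.

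Small lists of other functions are given by their ends, to be read against 11.0% high and 27.7% low of all genes. Of 16 odorant-binding proteins tested of 40, 6 were high and 1 low (median 0.64), from Obp56h at 2.90, which passed through Ribo-Seq alone, to Obp57b at -1.40, which passed through RNA-Seq alone. Of the 12 that passed in both assays 4 were high and 0 low. Of the 4 eye pigment genes tested 2 were high (median 0.88), namely ry, xanthine dehydrogenase, at 1.94 and Hn, phenylalanine hydroxylase, at 1.19. Of 5 Hox and segmentation factors tested of 22, 2 were high and 1 low (median 0.34), with Ubx at 1.34 (passed through Ribo-Seq alone, and 0.96 and not called without Ribo-Seq replicate 3) and exd, a Hox cofactor, at -1.69. Of the 3 that passed in both assays 1 was high and 1 low, and the median was 1.08 per base and 0.01 without RNA-Seq replicate 1. Most of the embryonic factors did not reach the minimum in adult females. The 2 tested larval serum proteins had 1 high gene, Lsp1beta at 1.48, and Lsp2 at -0.57 (median 0.45, or 1.57 with 3 genes tested without Ribo-Seq replicate 1). Of 15 insulin and TOR signalling genes none was high and 2 were low (median -0.06), with the transcription factor REPTOR highest at 0.91.

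Of 15 mRNAs for which translational control is known from other work, 8 were low and 1 high, with a median of -1.02 (-0.49 per base). nos was also picked for this list but was not matched to a gene in the table. Of the 12 that passed in both assays 5 were low and 1 high. The 2 ferritin subunits differed although they assemble into the same shell: the light chain Fer2LCH had 1650, 1810.0 and 1680 CPM in Ribo-Seq and 561 and 592 CPM in RNA-Seq, a difference of 1.57 (adjusted p = 1.5e-08), and the heavy chain Fer1HCH, whose mRNA can carry an iron-responsive element, had 1206, 1301 and 1208 CPM in Ribo-Seq and 1043 and 1070 CPM in RNA-Seq, a difference of 0.23 (adjusted p = 0.126). The difference between the chains was not tested. SdhB, the other mRNA of flies known for an iron-responsive element, was at 0.54. crc, the fly ATF4, whose upstream reading frames hold back the main one, had 105, 164 and 136 CPM in Ribo-Seq and 1010 and 849 CPM in RNA-Seq, a difference of -2.79 (adjusted p = 6.75e-11), with 76.2% of its coding bases shared with CG46314. msl-2, which Sex-lethal represses in females, had 0, 0.887 and 0 CPM in Ribo-Seq and 5.06 and 6.46 CPM in RNA-Seq, a difference of -4.44 from 1 footprint in all. Both crc and msl-2 were below the RNA in each footprint library. bcd, osk, grk and hb, the other low genes of this list besides Oda and RpL10, belong to the repressed maternal mRNAs as well.

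The remaining members were closer to balance. Oda, ornithine decarboxylase antizyme, which needs a frameshift, was at -1.02, and not called without Ribo-Seq replicate 1 (-0.95), Ribo-Seq replicate 3 (-0.99) or RNA-Seq replicate 1 (-0.95). Per base Oda was at -0.31. SamDC, a polyamine enzyme, had 50.1, 70.9 and 83.2 CPM in Ribo-Seq and 73.4 and 63.9 CPM in RNA-Seq, a difference of -0.02. pAbp, poly(A)-binding protein, was at -0.68, RpL10 at -1.33, and the chaperone Hsp83 at 0.96, high without Ribo-Seq replicate 2 (1.01) or RNA-Seq replicate 2 (1.06).

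Some of the most extreme low values belonged to genes that share coding sequence with another gene model. Of 8249 tested genes 192 had at least 50% of their coding bases in exons of another gene on the same strand, and 95 of them (49.5%) were low and 21 (10.9%) high, against 27.7 and 11.0% of all genes. sea had 0 footprints in all 3 libraries and 259 and 232 CPM in RNA-Seq, while fabp, which contains all of its coding bases, had means of 1239 CPM in Ribo-Seq and 979 CPM in RNA-Seq. ImpL2 had 0 footprints and 49.4 and 55.2 CPM in RNA-Seq, while CG46460, which holds 98.1% of its coding bases, had 61.9 CPM in Ribo-Seq and 0 in RNA-Seq. Such pairs are uncertain because the counting divides fragments between gene models, and CG46463 (with armi), CG30480 (with CG30479) and Lipt1 (with CG42837) are of the same kind. Among genes with no shared coding bases, CG40472 and CG32939 had 0 footprints, at least 128-fold and at least 92.8-fold lower than RNA when set against a floor of 3 counts over the group.

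The same measurement in Polr3D EY/+ females, which the wild-type fit did not use, gave 896 high (10.9%) and 2341 low (28.4%) of 8257 genes. Of the 906 genes high in wild type, 865 were tested there and 731 were high, which was 80.7% of the wild-type and 81.6% of the Polr3D EY/+ calls. Of the 2285 low in wild type, 2270 were tested and 2051 were low, 89.8 and 87.6% of the calls. In neither direction was a wild-type call turned round, with 0 genes called the opposite way. The log2 difference of Muc68E was 4.92 in wild type and 4.64 in Polr3D EY/+ females. That of Dhc64C was 3.66 in wild type and 3.75 in Polr3D EY/+ females, and that of mRpS5 was -1.65 in wild type and -1.63 in Polr3D EY/+ females. Other genes had values further apart, in the same order: Lsp1beta at 1.48 and 0.69, unc-13 at -1.52 and -0.80 and ninaE at -0.86 and -0.05. Lsp1beta and unc-13 were called in wild type but not in Polr3D EY/+ females. The flies shared stock and handling, so the repeat covers variation between libraries of this study only.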

How the data were processed

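Footprints and RNA of whole female flies were analysed in the 5 wild-type libraries, grouped by their labels, with the 6 Polr3D EY/+ libraries as a repeat. The deposited table holds estimated counts of fragments per transcript, rounded to whole numbers and not normalised. By the study's methods and processing notes, the authors checked reads with FastQC, trimmed them with Cutadapt and ran Salmon on a decoy-aware BDGP6 transcriptome that included noncoding RNAs. Salmon divides fragments between transcripts by a model, which makes near-identical and overlapping genes uncertain. rRNA had not been removed. The wild-type RNA-Seq replicate 3 had no column in the table and was not analysed here. The study left wild-type replicate 3 out of its analyses because it lay well apart in a principal component analysis of RNA-Seq. Ribo-Seq replicate 3, which has the same number, was used here. Without it 980 genes were high and 2305 low. All sample columns of the table were used (0 unused).

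Of 28367 features 28345 matched the annotation (Ensembl release 115) by transcript identifier and 22, at most 0.0440% of a library's counts, did not and stayed out of all totals. Transcripts were summed to 12759 protein-coding genes and scaled to the protein-coding total (CPM), since rRNA took most Ribo-Seq counts. Genes with at least 5 CPM in every library of at least 1 assay were tested with edgeR's quasi-likelihood test (edgeR 4.0.16, R 4.3.3) with assay as the term, library size set to the protein-coding total and no further factors. Benjamini-Hochberg adjustment ran over all tested genes. A gene was called at an adjusted p under 0.1 (the study also allowed 10% false discoveries) and a log2 difference over 1 either way. Positive differences mean more footprints per RNA. Sums, features and figures used Python 3.11.15, pandas 2.3.3, numpy 2.4.6 and matplotlib 3.10.9. The fit was tested on simulated data.

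The 40 lists held 886 genes, 9 of them in more than 1 list, and are described by counts and medians with no set test. They and the libraries were chosen with earlier results of these data known. Named genes were the 10 with the highest mean CPM in each assay, the 10 highest and 10 lowest called differences with enough counts (a mean of 50 counts per library, or for low genes 50 CPM in RNA-Seq) and no overlap between assays, the highest, lowest and most expressed tested member of each list, and all mRNAs of known translational control. Other genes were named after their values were seen. A floor of 3 counts over a group was used where a group had 0, which is 0.763 CPM in Ribo-Seq and 0.0573 CPM in RNA-Seq. The largest half-width of a 95% Wilson interval of a list's share was 0.0445 percentage points. Intervals and floors cover counting error only. Shares were not tested, and with 3 and 2 libraries a permutation test of single values could not pass the threshold.

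The alternatives were TMM factors, DESeq2 size factors in edgeR, the DESeq2 Wald test (DESeq2 1.42.0), a minimum of 20 CPM, no minimum, an adjusted p under 0.05, a test against a log2 difference of 1 (glmTreat), counts per base, the replicate number as a block, each library left out and, for shares, totals without the 30 genes of highest counts. The alternative without genes that share coding bases, and leaving out Polr3D EY/+ libraries, were added after seeing the data.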

Additional observations from a re-analysis of the deposited data

How the results depend on the processing

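The number of genes called high was 558 when tested against a log2 difference of 1 and 1418 with no minimum CPM, against 906, and 664 with a minimum of 20 CPM. Low genes numbered 1575, 2489 and 1843 under these settings, against 2285. The counts were 900 high and 2263 low with the DESeq2 Wald test, 906 and 2281 at an adjusted p under 0.05, 1041 and 2124 per base, and 885 and 2190 without genes that share coding bases. Leaving out each library in turn gave 873 to 980 high and 2220 to 2342 low genes. The replicate block gave 937 high and 2306 low genes, and 879 and 2270 when fitted over all libraries. The study's own model took the replicate as a batch. The numbers pair only 2 libraries of each assay, whose deviations had correlations of -0.03 and -0.01. With 2 RNA-Seq libraries the deviations mirror each other (correlation -1). These values therefore cannot show whether libraries of the same number share flies or a batch. Of 144 named genes 98 were called, 80 of these had a value in all of 16 alternatives, and 60 of the 80 kept their call in each. Of the called genes 24 lost the call in some alternative, 9 of them on leaving out a library, 11 uncalled genes gained one, and Vha16-1 turned to 0.61 per base. The medians of 4 of 39 lists changed sign with TMM factors (mitochondrial ribosomal proteins, replication-independent histones, insulin and TOR signalling, nucleolar genes) and 4 per base (aminoacyl-tRNA synthetases, replication-independent histones, midgut trypsins, insulin and TOR signalling), all with main medians between -0.19 and 0.05. The DESeq2 size factors also turned translation factors, and the replicate block turned the trypsins. With a minimum of 20 CPM the trypsins, the larval serum proteins (main median 0.45) and the Hox and segmentation factors (0.34) changed sign. With no minimum the Turandot genes (main median 0.61) and insulin and TOR signalling did. Without Ribo-Seq replicate 1 or RNA-Seq replicate 1 the synthetases and replication-independent histones changed sign, without Ribo-Seq replicate 2 or 3 the trypsins, and without RNA-Seq replicate 2 the Turandot genes. Without the 30 genes of highest counts 72 of 78 shares of lists moved by more than 1 SD. The cause of these shifts was not tested. Footprint depth, with 1127599 to 1495975 counts per library, limits genes of few footprints.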

Other observations

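Some families that were picked after their values were seen showed a common direction, and they are given as values with no test. Over all genes 11.0% were high and 27.7% low. All 10 tested Bomanin genes, short Toll-induced peptides, were high, between 1.23 and 5.96 with a median of 2.35. Of these 5 passed the minimum through Ribo-Seq alone and so were likely to be high, and the 5 that passed in both assays were also high, with a median of 1.38. Of 9 genes of laminins, collagen IV and other basement membrane proteins 8 were high, with a median of 1.86 (1.54 per base), including trol at 3.01, LanA at 2.67, vkg at 2.08 and Col4a1 at 1.86. The exception was wb, a laminin alpha chain, at 0.72. Of the 12 cyclins 7 were low and 0 high, with a median of -1.46, so that CycG at -2.80 and CycD at -1.88 stood beside the maternal CycB. Of 7 subunits of the COPI coat, which buds vesicles from the Golgi, 3 were high (median 0.85).

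Other families held calls in both directions or few calls, against 11.0% high and 27.7% low of all genes. The high calls of cytochrome P450 genes and the low calls of UDP-glycosyltransferases were near those shares. Of 58 cytochrome P450 genes 7 were high and 6 low, although Cyp4g1, the decarbonylase of cuticle hydrocarbons, had 9191, 8579 and 8387 CPM in Ribo-Seq and 1499 and 2798 CPM in RNA-Seq (log2 difference 2.02). Of 26 glutathione transferases 3 were low and 0 high, of 22 UDP-glycosyltransferases 6 were low and 0 high, and of 9 E2 ubiquitin-conjugating enzymes 4 were low and 0 high. Of 24 Mediator subunits 4 were low and 1 high, and of 21 nucleoporins 2 were high and 0 low. Sps2, a selenoprotein whose stop codon is read through by selenocysteine, was at -4.05. The germline genes gus at -3.97 and bam at -2.26 were low, but germline genes did not share a direction. The germline marker vas had 159.1, 152.5 and 153.4 CPM in Ribo-Seq and 129.1 and 135.9 CPM in RNA-Seq and was not called. The germline gene tud was high at 1.54.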
